A study of Mus musculus with 12 samples.

Results

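The urea cycle and glutamine genes described here are 10 of the 22471 features measured by RNA sequencing in primary mouse hepatocytes. They comprise the mitochondrial entry enzymes Nags and Cps1, the cycle enzymes Otc, Ass1, Asl and Arg1, the carriers Slc25a15 and Slc25a13, and the glutamine enzymes Glul and Gls2. The members were taken by gene symbol, and the set was chosen by their differences between the same 4 groups of libraries, which were already known. Every value of theirs is therefore a description, and calls of members are counted beside those of all genes without being read as tests. All 10 passed the filter on low counts in every comparison.

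The study asked how benzbromarone (BBR), a uric acid-lowering drug, acts on liver cells with and without oleic acid (OA), which hepatocytes store as lipid. Per the methods, hepatocytes were isolated by collagenase perfusion from 6-week-old male C57BL/6J mice and treated for 16 h, and the labels name the source as liver. The 4 groups, with 3 libraries each, were untreated control (Con), 0.2 mM OA (ConOA, here OA), 15 µM BBR (BBR) and 15 µM BBR with 0.2 mM OA (BBROA, here BBR+OA). OA was given on serum albumin, and whether cultures without OA received albumin alone is not stated, so the fatty acid and its carrier cannot be told apart. Whether the 3 libraries of a group came from separate mice or separate wells is also not stated, so p-values measure only the spread between these libraries, which may be technical. These are isolated, plated cells that have left the liver lobule.

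Hepatocytes detoxify ammonia by 2 routes. Around the portal vein the urea cycle joins ammonia and bicarbonate into carbamoyl phosphate, passes it through citrulline and argininosuccinate to arginine, and splits arginine into urea and ornithine. A rim of cells around the central vein instead binds ammonia to glutamate as glutamine. Glutaminase in the periportal cells releases ammonia from glutamine back to the cycle. In the liver the cycle enzymes are known to be induced by glucagon and glucocorticoids in fasting and on high-protein diets.

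The libraries held 15485498 to 23668371 counts each, and 1 count corresponded to 0.0423 to 0.0646 CPM, the count scaled by the total of its library. All 11 hepatocyte markers were above 1 CPM in each group, summing to 44435 to 51731 CPM. The 8 Kupffer cell markers summed to 93.1 to 111 CPM in control, 90.1 to 108 in OA, 130.4 to 173 in BBR and 91.7 to 106 in BBR+OA, mostly Cd68. The 6 endothelial markers summed to 47.3 to 65.4 CPM and the 6 stellate markers to 16.8 to 23.1 CPM. The 6 cholangiocyte markers summed to 592 to 731 CPM in control and 391 to 425 CPM in BBR. In OA they summed to 241 to 271 CPM and in BBR+OA to 198 to 237 CPM, mostly Spp1. Krt7 and Cftr averaged below 0.2 CPM in every group. Over the 12 libraries Sox9 stood at 29.2 to 58.5 CPM, Krt19 at 6.51 to 14.7 CPM and Epcam at 1.46 to 3.81 CPM. Fewer cells of a type and less RNA per cell cannot be told apart in such bulk libraries.

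Promoter sequences are shown for a glutamine enzyme, a cycle enzyme, a carrier and a member whose groups overlapped throughout, because these differ in how the libraries were ordered. RefSeq windows, each from 250 bases before to 50 after a transcription start on GRCm38.p6, matched 6 of the 10 members. The window of Glul (chr1:153899679-153899978, plus strand) had 64.3% G and C, that of Ass1 (chr2:31470020-31470319, plus strand) 74.0%, the second of 2 windows of Slc25a15 (chr8:22398228-22398527, minus strand) 79.0% and that of Otc (chrX:10252055-10252354, plus strand) 44.3%, against a median of 52.7% over 32851 windows. Capitals mark every match to the 8 motifs searched.
Glul: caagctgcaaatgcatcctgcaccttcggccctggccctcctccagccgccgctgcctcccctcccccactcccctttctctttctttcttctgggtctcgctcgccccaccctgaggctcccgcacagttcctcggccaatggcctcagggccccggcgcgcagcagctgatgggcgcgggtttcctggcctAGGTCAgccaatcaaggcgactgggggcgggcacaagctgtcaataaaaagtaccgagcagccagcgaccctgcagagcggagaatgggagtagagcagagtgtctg
Ass1: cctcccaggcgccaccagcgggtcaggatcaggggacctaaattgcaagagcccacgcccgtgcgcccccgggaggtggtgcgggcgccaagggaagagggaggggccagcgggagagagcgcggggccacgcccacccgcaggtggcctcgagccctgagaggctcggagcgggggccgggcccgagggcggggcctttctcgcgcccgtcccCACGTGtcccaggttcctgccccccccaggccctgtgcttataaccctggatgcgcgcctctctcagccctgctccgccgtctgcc
Slc25a15: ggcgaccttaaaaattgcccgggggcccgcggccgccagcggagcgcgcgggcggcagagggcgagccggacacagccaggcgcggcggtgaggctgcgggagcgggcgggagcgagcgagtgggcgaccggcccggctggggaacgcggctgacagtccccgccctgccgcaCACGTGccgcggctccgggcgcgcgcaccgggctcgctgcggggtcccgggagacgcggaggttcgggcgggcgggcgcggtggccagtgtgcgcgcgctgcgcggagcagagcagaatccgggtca
Otc: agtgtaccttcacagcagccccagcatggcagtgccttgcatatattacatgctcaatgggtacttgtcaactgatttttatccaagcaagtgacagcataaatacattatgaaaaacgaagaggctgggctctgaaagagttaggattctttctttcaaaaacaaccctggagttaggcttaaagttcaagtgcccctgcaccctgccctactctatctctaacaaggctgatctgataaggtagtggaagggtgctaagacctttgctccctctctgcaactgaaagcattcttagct

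The motifs, searched on both strands, were the CREB site TGACGTCA, its core TGACG, which also lies within the full site, the C/EBP site TTGCNNAA, the glucocorticoid receptor core TGTTCT, the nuclear receptor core AGGTCA, the ATF4-C/EBP composite TGATGNAAT, the E-box CACGTG and the TATA box TATAAA. Glul held AGGTCA at -57 to -52 from the start, a motif found in 16.3% of all windows. Ass1 held CACGTG at -36 to -31 and the second window of Slc25a15 held it at -77 to -72, against 7.15% of all windows. The Otc window and the first Slc25a15 window matched none. Of the windows not shown, Slc25a13 held CACGTG at -125 to -120 and TGACG at -13 to -9, and Nags held AGGTCA at -178 to -173 and TGACG at 31 to 35, both on the minus strand of the gene. In all windows TGACG was found in 20.8%, TGTTCT in 19.0%, TATAAA in 13.6%, TTGCNNAA in 10.8%, TGACGTCA in 1.79% and TGATGNAAT in 0.965%. These letter matches are descriptions and not binding sites.

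Cps1 differed most between groups of the 10 genes. It encodes carbamoyl phosphate synthetase, the mitochondrial enzyme that commits ammonia to the cycle, and lies at chr1:67123026-67231259 on the plus strand (GENCODE M21, GRCm38, here and below). Cps1 had values of 19.9, 16.7 and 17.7 CPM in the control libraries. In the OA libraries Cps1 stood at 199, 170.4 and 158 CPM. All OA values lay far above all control values, with means of 176 ± 20.9 and 18.1 ± 1.63 CPM (SD, n = 3, as for every mean below). The BBR libraries held 12.3, 8.72 and 8.24 CPM of Cps1, resting on 265, 135 and 153 counts. The BBR+OA libraries held 185, 204 and 185 CPM. BBR alone thus had the lowest Cps1 values, without overlap with control, while BBR+OA and OA overlapped.

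The fitted log2 fold change of Cps1 was 3.32 (SE 0.0854) for OA against control, a 9.96-fold higher level that ranked 20 among 12418 genes. For BBR+OA against BBR it was 4.29 (SE 0.0969), a 19.5-fold higher level that ranked 7 among 12416 genes. For BBR against control it was -0.86 (SE 0.122), and for BBR+OA against OA 0.12 (SE 0.0715). The BBR difference was thus on the low side without OA and within 2 SE of none with OA, and the interaction, which is the BBR effect with OA minus that without, was 0.98 (SE 0.154).

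Nags makes N-acetylglutamate, the activator that Cps1 needs, and lies at chr11:102145513-102149477 on the plus strand. Nags held 29.4, 30.5 and 27.0 CPM in control and 31.0, 31.3 and 29.5 CPM in OA. It held 23.8, 23.8 and 23.6 CPM in BBR and 26.0, 26.7 and 28.3 CPM in BBR+OA. Every BBR library was below every control and BBR+OA library, and every BBR+OA library was below every OA library. The log2 fold change of Nags was -0.27 (SE 0.0662) for BBR against control and -0.19 (SE 0.0639) for BBR+OA against OA. With OA the log2 fold change of Nags was 0.12 (SE 0.0654) against control, where the libraries overlapped, and 0.20 (SE 0.0627) for BBR+OA against BBR, where they did not. An antisense gene, Gm11586, overlaps an exon of Nags and was not analysed here, and strand use in counting is not given in the sources used here.

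Otc, ornithine transcarbamylase, joins carbamoyl phosphate to ornithine in mitochondria and lies at chrX:10252305-10321024. Its means were 12.4 ± 2.3 CPM in control, 11.7 ± 0.504 in OA, 10.6 ± 2.40 in BBR and 12.2 ± 1.55 in BBR+OA. Otc overlapped between groups in every comparison, and its log2 fold changes ran from -0.19 (SE 0.146, BBR against control) to 0.20 (SE 0.141, BBR+OA against BBR). The coefficient of variation of Otc reached 22.6% among the BBR libraries, the first of which held 13.3 CPM against 9.82 and 8.67.

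Ass1, argininosuccinate synthase, joins citrulline to aspartate in the cytosol and lies at chr2:31470207-31520672. Ass1 held 128, 118 and 121 CPM in control and 147, 149 and 153 CPM in OA. It held 109, 108 and 109 CPM in BBR and 143, 136 and 149 CPM in BBR+OA. The order from BBR through control to both OA groups held for every library, and only OA and BBR+OA overlapped. The log2 fold change of Ass1 was 0.33 (SE 0.0489) for OA against control, 0.41 (SE 0.0430) for BBR+OA against BBR and -0.15 (SE 0.0450) for BBR against control. Asl, argininosuccinate lyase, takes the next step and lies at chr5:130011258-130029247. Its group means stayed between 72.2 ± 1.57 CPM in BBR and 78.6 ± 3.99 CPM in BBR+OA, which were the only groups of Asl that did not overlap, with a log2 fold change of 0.14 (SE 0.05004).

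Arg1, the arginase that splits arginine into urea and ornithine, lies at chr10:24915221-24927484 on the minus strand. Arg1 held 10.9, 9.12 and 8.999 CPM in control and 13.2, 12.4 and 11.8 CPM in BBR. It held 17.0, 16.8 and 17.0 CPM in OA and 15.6, 17.3 and 14.96 CPM in BBR+OA. Control was lowest, BBR stood between, and both OA groups were highest and overlapped with each other. The log2 fold change of Arg1 was 0.85 (SE 0.0910) for OA against control, 0.39 (SE 0.1004) for BBR against control, 0.37 (SE 0.0889) for BBR+OA against BBR and -0.09 (SE 0.0821) for BBR+OA against OA. Arg1 was the only cycle enzyme with a higher level in BBR than in control without overlap, whereas Cps1 and Ass1 were lower there. Arg1 is known from macrophages too, and the summed Kupffer markers given above were higher in BBR than in control. That sum was mostly Cd68, with 68.4, 89.8 and 84.8 CPM in control and 107, 150 and 139 CPM in BBR. Clec4f was also higher in BBR without overlap, Cd5l was lower without overlap, and Adgre1, Vsig4, Marco, C1qa and C1qb overlapped. In OA, Adgre1 (7.77, 5.01 and 6.12 CPM against 2.92, 2.27 and 2.11 in control) was higher without overlap. Marco was also higher (8.22, 6.25 and 6.02 CPM against 1.18, 1.21 and 1.27). Clec4f, Vsig4, Cd5l, C1qa and C1qb were lower in OA than in control without overlap, and Cd68 overlapped. The part of these markers in the Arg1 differences was not tested.

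Of the carriers, Slc25a15 exchanges ornithine and citrulline across the mitochondrial membrane and lies at chr8:22375551-22398597. Slc25a15 held 28.7, 28.2 and 29.6 CPM in control, 28.8, 27.9 and 26.1 CPM in OA and 27.0, 25.9 and 29.3 CPM in BBR+OA. In BBR it held 20.9, 19.95 and 19.3 CPM, below each library of the other groups. The log2 fold change of Slc25a15 was -0.50 (SE 0.0669) for BBR against control, -0.02 (SE 0.0691) for BBR+OA against OA and 0.46 (SE 0.0694) for BBR+OA against BBR. A lower level was thus seen for BBR without OA and not with it, and the interaction was 0.50 (SE 0.0910). Slc25a13, citrin, exports the aspartate that Ass1 uses and lies at chr6:6041218-6217173. Its means ran from 69.1 ± 3.79 CPM in control to 76.5 ± 1.76 CPM in BBR+OA, and its log2 fold change was 0.14 (SE 0.0541) for OA against control.

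Glul, glutamine synthetase, is the enzyme of the perivenous route and lies at chr1:153899944-153909723 on the plus strand. Glul held 202, 176 and 193 CPM in control and 107, 93.8 and 106 CPM in OA. It held 157, 133 and 131 CPM in BBR and 103, 93.0 and 93.2 CPM in BBR+OA. Control was highest, BBR stood below it, and the OA groups were lowest and overlapped with each other. The log2 fold change of Glul was -0.86 (SE 0.0639) for OA against control, -0.42 (SE 0.0649) for BBR against control, -0.53 (SE 0.0634) for BBR+OA against BBR and -0.09 (SE 0.0605) for BBR+OA against OA. Glul was the only member that was lower in both treatments alone without overlap with control. The summed cholangiocyte markers, mostly Spp1, had the same order of groups, highest in control and lowest in BBR+OA. Other markers of that list did not share the order. Sox9 was lowest in control, with 35.2, 33.7 and 29.2 CPM against 48.3, 51.3 and 47.6 CPM in BBR. Krt19 and Epcam were higher in BBR than in control, while Epcam was lower in OA. Their part in the Glul difference was not tested. Glul shares exon bases with Teddm2, which averaged 0.0125 CPM, and with Mir8114, which was not analysed here.

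Gls2, the liver-type glutaminase that releases ammonia and glutamate, lies at chr10:128194457-128210004 on the plus strand. Gls2 held 28.1, 28.8 and 31.5 CPM in control and 36.8, 36.4 and 40.03 CPM in BBR. It held 30.9, 30.8 and 32.2 CPM in OA and 33.0, 32.9 and 32.9 CPM in BBR+OA. The BBR libraries were above each library of the other groups. The log2 fold change of Gls2 was 0.37 (SE 0.0673) for BBR against control, 0.07 (SE 0.0596) for BBR+OA against OA and -0.18 (SE 0.0580) for BBR+OA against BBR. Glul and Gls2, which run in opposite directions between glutamate and glutamine, thus differed from control in opposite directions under BBR. An exon of Gls2 overlaps Spryd4 on the opposite strand, which averaged 23.01 CPM, so reads of the pair may be shared where counting ignored strand. Spryd4 itself had a log2 fold change of -0.03 (SE 0.0739) for BBR against control.

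**Figure D1:**
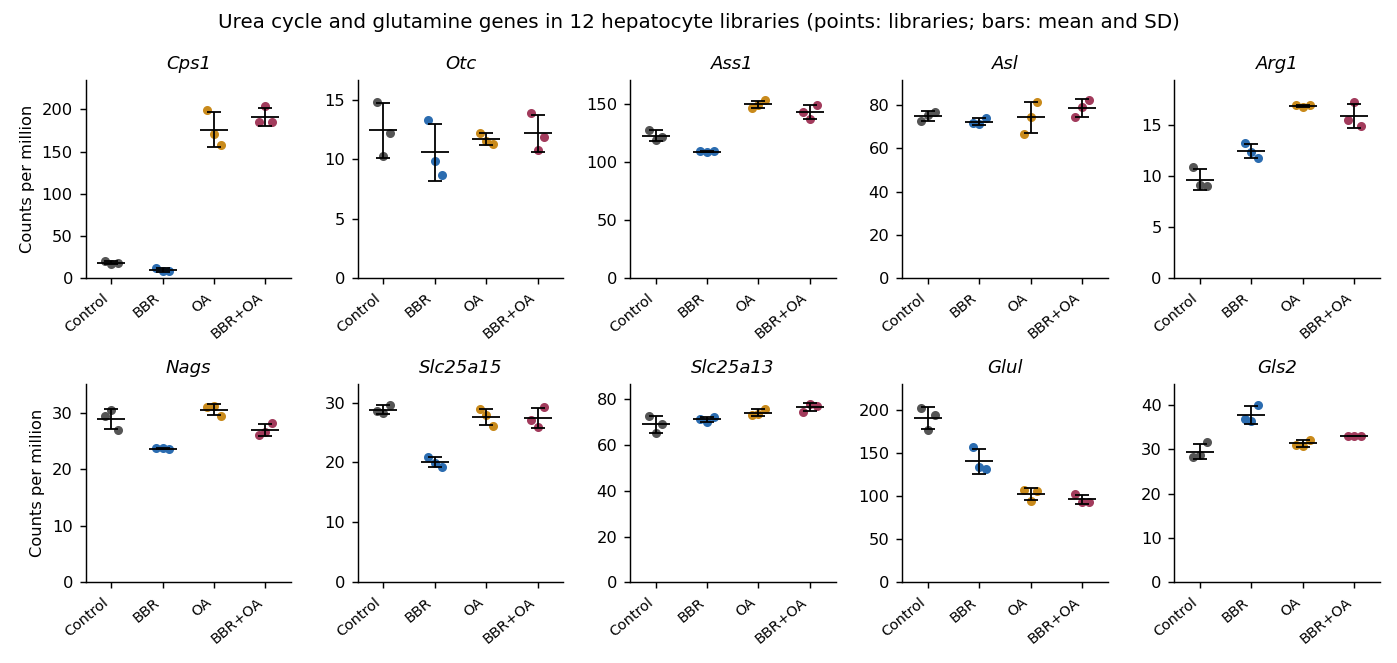
CPM of the 10 genes on linear axes from 0, with 1 panel per gene and 1 point per library, where bars give the mean and SD of 3 libraries. Cps1 stands near 18.1 CPM in control and near 176 CPM in OA, Glul stands near 190.5 CPM in control and near 96.3 CPM in BBR+OA, and the Otc points overlap in all groups.

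Libraries with the same number resembled each other in some members. The first control and the first BBR library had the highest Cps1, Otc, Arg1 and Glul of their groups. The coefficient of variation over 3 libraries was below 12.5% for each member in each group except Cps1 in BBR (22.7%) and Otc in control (18.5%), BBR (22.6%) and BBR+OA (12.8%).

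Counts over the members are given beside the same counts over all genes, and since the members were chosen on these contrasts nothing is read from them. A gene was called where edgeR's quasi-likelihood test gave an adjusted p under 0.05. In OA against control 5 of 10 members were called, Cps1, Ass1, Arg1 and Slc25a13 higher and Glul lower, and 5 did not overlap in CPM. Of 12418 genes 42.8% were called there, 21.3% higher and 21.5% lower, and 51.8% did not overlap. The median log2 fold change was 0.12 over the members and -0.01 over all genes. With upper quartile scaling the genes called split into 2077 higher and 3216 lower, against 2643 and 2668 with the main scaling, and Cps1, Ass1, Arg1 and Glul kept their direction. Slc25a13, at 0.10 to 0.18 over the alternatives, was past the threshold in 4 of 12 of them.

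In BBR+OA against BBR 8 of 10 members were called, Cps1, Ass1, Asl, Arg1, Nags and Slc25a15 higher and Glul and Gls2 lower, and 9 did not overlap. Of 12416 genes 38.9% were called, 20.1% higher and 18.8% lower, and 49.4% did not overlap. The median was 0.20 over the members and -0.01 over all genes. Without BBR+OA library 3, and with DESeq2, 5 members were called, and over 12 alternatives Asl was past the threshold in 4, Gls2 in 7 and Nags in 9. With upper quartile scaling the split of all genes was 1976 higher and 2870 lower, against 2496 and 2330.

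In BBR against control 7 of 10 members were called, Arg1 and Gls2 higher and Cps1, Ass1, Nags, Slc25a15 and Glul lower, and 7 did not overlap. Of 12555 genes 27.7% were called, 13.2% higher and 14.5% lower, and 41.5% did not overlap. The median was -0.17 over the members and close to 0 over all genes (-0.00085). Ass1 was past the threshold in 8 of 12 alternatives. In BBR+OA against OA no member was called by edgeR, with or without the replicate number as a block, or by DESeq2, 1 (Nags) passed without adjustment for multiple testing, and 2 (Nags and Gls2) did not overlap. Of 12278 genes 4.59% were called, 1.95% higher and 2.63% lower, and 23.8% did not overlap. With the replicate number as a block 1333 genes were called in place of 563. The median was 0.01 over the members.

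In the interaction of BBR and OA 5 of 10 members were called, Cps1, Slc25a15 and Glul with positive values and Arg1 and Gls2 with negative values. Of 12742 genes 12.2% were called, 6.87% positive and 5.31% negative. The interactions of Glul, Arg1 and Gls2 were 0.34 (SE 0.0978), -0.47 (SE 0.124) and -0.29 (SE 0.0877). Leaving out control library 1, BBR library 3, or BBR+OA library 1 or 3 left 3 members called, and over 17 alternatives Glul was past the threshold in 9 and Gls2 in 11. OA against control shares the control libraries with BBR against control, and BBR+OA against BBR shares the BBR libraries with it, so these comparisons are not independent of each other.

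**Figure D2:**
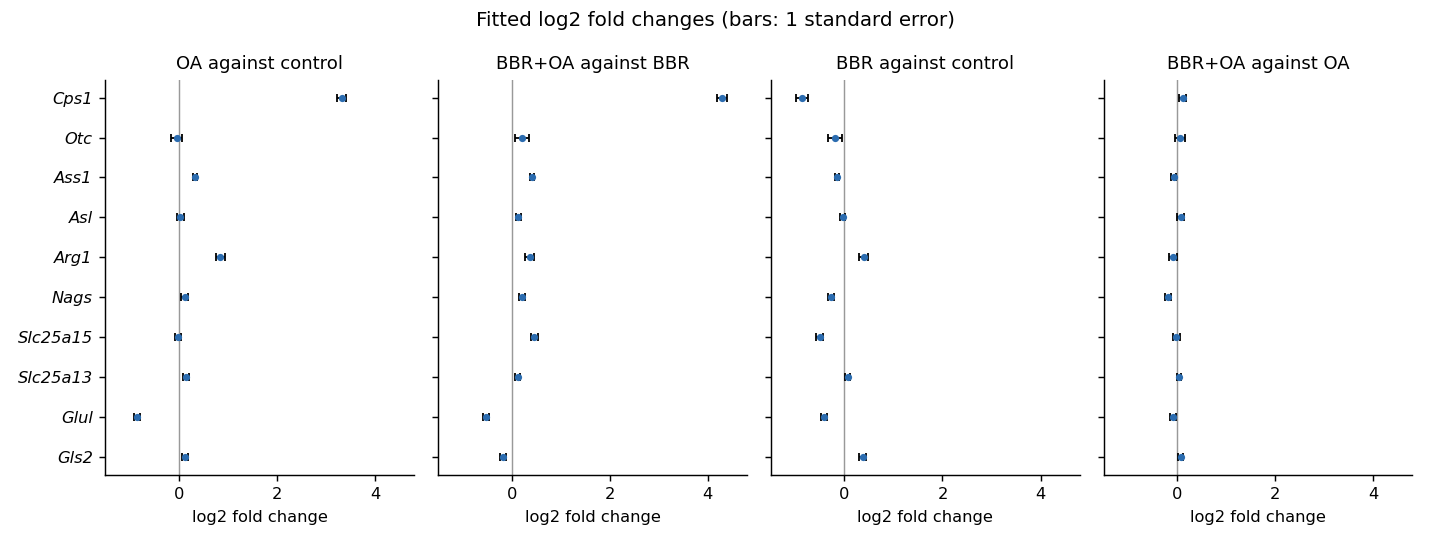
Fitted log2 fold changes of the 10 genes in 4 comparisons, where points give the estimate and bars 1 standard error. Cps1 lies at 3.32 and 4.29 in the comparisons with OA, and the 10 estimates lie between -0.19 and 0.12 in BBR+OA against OA.

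Levels of different genes were compared on the deposited FPKM, which divides by transcript length and depth. In control the order from the highest was Glul (82.4 ± 3.48 FPKM), Ass1 (72.1 ± 2.82), Asl (42.4 ± 1.61), Slc25a13 (22.4 ± 1.27), Nags (14.3 ± 0.867), Gls2 (11.6 ± 0.655), Slc25a15 (8.40 ± 0.204), Arg1 (6.55 ± 0.726), Otc (5.34 ± 0.990) and Cps1 (3.26 ± 0.291). Only the neighbours Arg1 and Otc overlapped between libraries. Cps1, one of the most abundant transcripts of intact liver by textbook account, was the lowest of the 10 in control and, at 1.75 ± 0.398 FPKM, in BBR. In OA Cps1 stood at rank 4 with 31.6 ± 3.76 FPKM and in BBR+OA at rank 4 with 34.4 ± 1.998 FPKM, with Ass1 first in both. Glul was first in control, overlapped with Ass1 in BBR and with Asl in both OA groups.

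The 5 enzymes that carry nitrogen through the cycle (Cps1, Otc, Ass1, Asl and Arg1) summed to 129.7 ± 3.19 FPKM in control, 179 ± 3.30 in OA, 121 ± 2.07 in BBR and 179 ± 4.40 in BBR+OA. Cps1 made up 2.51% ± 0.162 of that sum in control, 17.7% ± 2.32 in OA, 1.45% ± 0.302 in BBR and 19.2% ± 1.36 in BBR+OA. The Ass1 share was 55.6% ± 0.806 in control and 49.1% ± 0.465 in OA, and the Asl share 32.7% ± 2.02 and 24.0% ± 2.26, while their own FPKM were 72.1 ± 2.82 and 88.1 ± 1.85 for Ass1 and 42.4 ± 1.61 and 43.1 for Asl. Otc held between 2.80% and 4.11% and Arg1 between 5.05% and 6.98% of the sum.

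**Figure D3:**
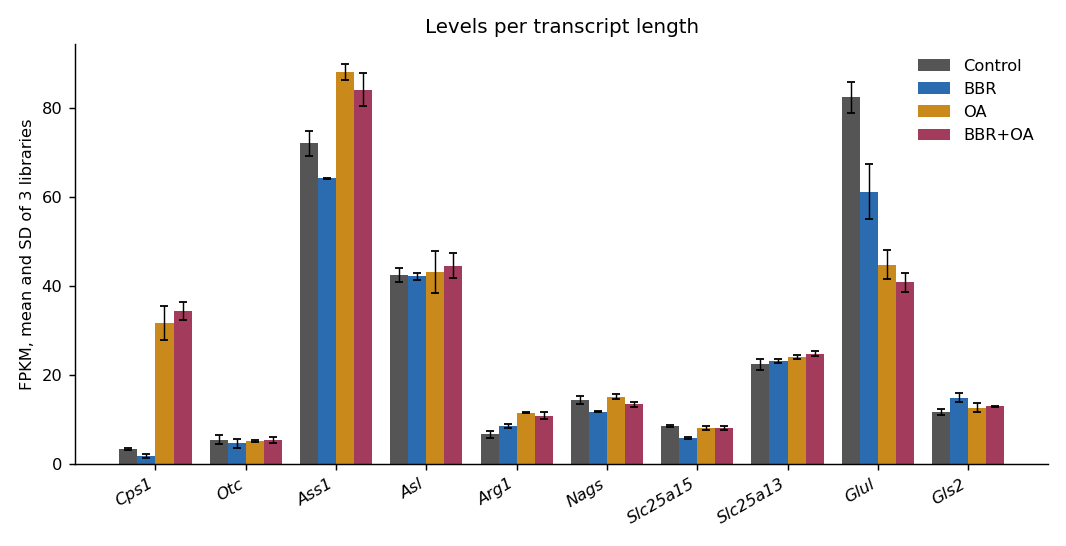
Mean FPKM of the 10 genes in each group as bars from 0, with the SD of 3 libraries. Ass1 and Glul have the tallest bars in control (72.1 and 82.4 FPKM), and Cps1 passes from 3.26 FPKM in control to 34.4 FPKM in BBR+OA.

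Paralogs of the members were set beside them per length. Arg2, the mitochondrial arginase of other tissues, stood at 0.620 to 1.24 FPKM on 14 to 48 counts a library, below Arg1 in each group. Slc25a2, a second ornithine carrier, had at most 3 counts in any library, and Slc25a12, the aspartate carrier of muscle and brain, stood at 3.83 to 4.47 FPKM against 22.4 to 24.7 FPKM for Slc25a13.

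Genes of the same pathways that are no members were tested, in 5 lists of 82 genes taken from textbook roles. The lists were set with earlier results of these data known, so their p-values are no independent test. The genes named were picked from those with the largest called changes. The list for urea, arginine and ornithine also held the channel Aqp9 and the deacetylase Sirt3, and its genes are called arginine genes for short. In its 16 tested genes OA raised 6 and lowered 2 (50% called, against 42.8% of all genes), with a median log2 fold change of 0.01. Slc7a1, the cationic amino acid transporter that takes up arginine and ornithine, went from 18.4, 18.1 and 18.2 CPM in control to 52.0, 55.2 and 38.3 CPM in OA, a difference of 1.45 in log2 (SE 0.106, adjusted p = 1.14e-07 by edgeR). The low-affinity transporter Slc7a2 rose by 0.75 (SE 0.0704, adjusted p = 1.23e-06 by edgeR), from 50.4 ± 4.19 to 82.6 ± 7.56 CPM. Between BBR and BBR+OA 8 of the 16 rose and none fell (50% called, against 38.9% of all genes), with Slc7a1 at 1.33 and Slc7a2 at 0.94.

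With BBR alone 6 of the 16 genes of the urea, arginine and ornithine list fell and none rose (37.5% called, against 27.7% of all genes). The median was -0.24. Agmat, an agmatinase-like hydrolase, fell by 0.64 (SE 0.150, adjusted p = 0.00406 by edgeR), from 8.87, 6.71 and 6.76 CPM to 5.29, 4.71 and 3.99 CPM. Aqp9, a channel for glycerol and urea, fell by 0.37 (SE 0.0568, adjusted p = 0.000132), and Sirt3, a mitochondrial deacetylase, fell by 0.47 (SE 0.123, adjusted p = 0.00927). Gamt, which makes creatine from the arginine product guanidinoacetate, fell by 0.38 with OA (SE 0.119, adjusted p = 0.0188 by edgeR), a call lost with DESeq2, in the fit on all 12 libraries and without control library 1 or OA library 2 or 3. Aqp9 also fell with OA, by 0.15 (SE 0.0545, adjusted p = 0.0392 by edgeR), a call lost in 7 of 12 alternatives. Of the 16, none was called in BBR+OA against OA by the main edgeR fit or DESeq2. In that comparison 2 had an unadjusted p under 0.05 by edgeR, and 1 was called with the replicate block. In the interaction 5 were positive and none negative with edgeR, 2 with RLE scaling and none with DESeq2.

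In 27 tested genes of glutamine and glutamate handling, OA raised 15 and lowered 2 (63.0% called, against 42.8% of all genes), with a median of 0.23, and BBR+OA against BBR raised 19 and lowered 1 (74.1%, against 38.9%), with a median of 0.23. Kyat1, a glutamine transaminase, went from 10.5, 9.03 and 9.34 CPM in control to 22.7, 16.8 and 23.1 CPM in OA, a difference of 1.16 in log2 (SE 0.119, adjusted p = 3.10e-06 by edgeR). Slc38a1, a sodium-coupled glutamine transporter, rose by 1.25 (SE 0.120, adjusted p = 1.49e-06), from 4.54 ± 0.594 to 10.5 ± 0.374 CPM. The 2 genes that fell with OA were Glud1, glutamate dehydrogenase, by 0.56 (SE 0.0536, adjusted p = 1.59e-06), and Nit2, an omega-amidase, by 0.38 (SE 0.0752, adjusted p = 0.000965).

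BBR alone raised 7 and lowered 9 of the 27 (59.3% called, against 27.7% of all genes), with a median of -0.10. Gpt2, the mitochondrial alanine aminotransferase, went from 195, 195 and 177 CPM in control to 105, 82.0 and 100.2 CPM in BBR, a difference of -0.96 in log2 (SE 0.0700, adjusted p = 9.25e-08 by edgeR), and stood at 221 ± 8.19 CPM in BBR+OA. Kyat1 fell by 0.94 (SE 0.120, adjusted p = 2.18e-05), from 9.62 ± 0.781 to 4.94 ± 0.320 CPM. Slc38a1 rose by 0.65 (SE 0.136, adjusted p = 0.00190), and Slc38a7, a lysosomal glutamine transporter, by 0.35 (SE 0.0593, adjusted p = 0.000296). Glud1, with 1340 ± 63.6 CPM in control against 869 ± 65.0 CPM under BBR, fell by 0.61 (SE 0.0576, adjusted p = 1.20e-06). In BBR+OA against BBR the gene that fell was Slc7a6, an exchanger of glutamine for cationic amino acids, by 0.34 (SE 0.118, adjusted p = 0.0353 by edgeR), a call lost with DESeq2 and without any of 5 single libraries. Of the 27, none was called in BBR+OA against OA by the main edgeR fit or DESeq2. In that comparison 7 had an unadjusted p under 0.05 by edgeR, and 4 were called with the replicate block. In the interaction 8 were positive and 4 negative (44.4%, against 12.2% of all genes).

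Of 15 regulators of urea cycle genes, OA raised 4 and lowered 6 (66.7% called, against 42.8% of all genes), with a median of -0.10. Gcgr, the glucagon receptor, went from 48.0, 44.3 and 55.6 CPM in control to 17.6, 16.6 and 24.1 CPM in OA and to 15.8, 15.9 and 19.1 CPM in BBR, with log2 fold changes of -1.30 (SE 0.121, adjusted p = 1.13e-06 by edgeR) and -1.53 (SE 0.0929, adjusted p = 1.68e-08). Cps1 and Gcgr thus differed from control in the same direction with BBR and in opposite directions with OA. Onecut1, a liver-enriched transcription factor, fell with OA by 0.76 (SE 0.146, adjusted p = 0.000745) and with BBR by 0.67 (SE 0.165, adjusted p = 0.00594). Creb3l3, a CREB-family factor of the fasting liver, was the regulator that rose in all 4 comparisons, from 50.9 ± 1.38 CPM in control to 84.7 ± 5.08 in OA, 90.8 ± 5.25 in BBR and 141 ± 5.95 in BBR+OA. Its log2 fold change was 0.74 for BBR+OA against OA (SE 0.0547, adjusted p = 2.53e-06 by edgeR).

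Regulators called with BBR alone were 1 higher and 6 lower (46.7%, against 27.7% of all genes), with a median of 0.01, and in BBR+OA against BBR 4 were higher and 4 lower (53.3%, against 38.9%), with a median of 0.03. Klf15, a glucocorticoid-induced factor that drives amino acid breakdown, rose by 1.02 in BBR+OA against BBR (SE 0.149, adjusted p = 8.88e-05 by edgeR), and Foxa1 fell by 0.35 (SE 0.0756, adjusted p = 0.00218) and Nr3c1, the glucocorticoid receptor, by 0.30 (SE 0.0495, adjusted p = 0.000219). Foxo1, a forkhead factor restrained by insulin, rose with OA by 0.48 (SE 0.0618, adjusted p = 2.35e-05). In BBR+OA against OA 2 of the 15 were called, Creb3l3 and Klf15, both higher (13.3%, against 4.59% of all genes). Klf15 rose by 0.65 (SE 0.157, adjusted p = 0.0311 by edgeR), a call lost without OA library 1 or 3 or BBR+OA library 1 or 2. The replicate block called 4 of the 15. In the interaction 5 of the 15 were positive and none negative (33.3%, against 12.2% of all genes).

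**Figure D4:**
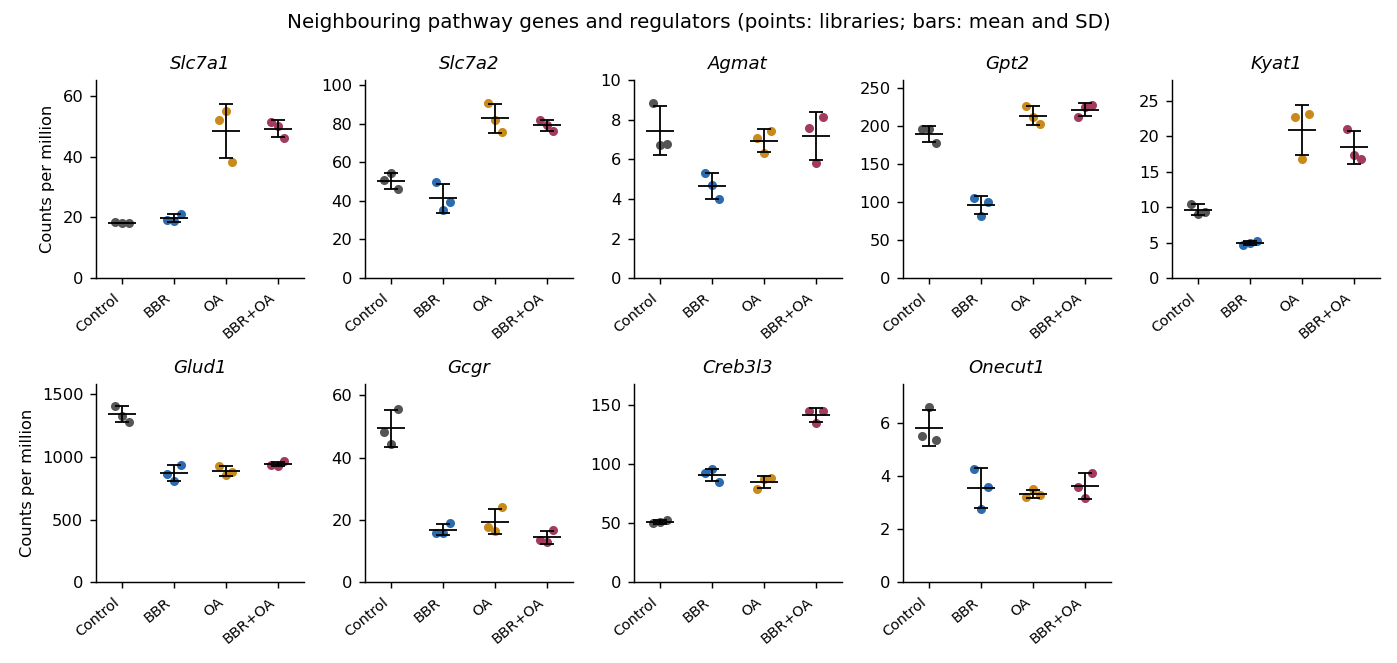
CPM of 9 pathway genes and regulators that are no members, on linear axes from 0, with 1 point per library and bars for the mean and SD of 3 libraries. Gpt2 is lowest in BBR (95.9 CPM), Gcgr is highest in control (49.3 CPM), and Creb3l3 is highest in BBR+OA (141 CPM).

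Markers of the 2 ends of the intact lobule were compared for their level only, since plated cells hold no lobule position. Of 10 periportal genes OA raised 2 and lowered 2 (40% called, against 42.8% of all genes, median -0.08). Hsd17b13, a lipid droplet enzyme, rose by 0.97 (SE 0.0829, adjusted p = 4.82e-07 by edgeR), from 71.3 ± 7.78 to 136 ± 13.1 CPM, while Cdh1, E-cadherin, fell by 0.22 (adjusted p = 0.00427) and Pigr, the immunoglobulin receptor, by 0.24 (adjusted p = 0.00749). BBR lowered 4 and raised none (40%, against 27.7%, median -0.19), led by G6pc, glucose-6-phosphatase, which fell by 1.03 (SE 0.217, adjusted p = 0.00199) from 11.3, 9.80 and 19.9 CPM to 7.61, 5.23 and 6.95 CPM. Ctsc, a cathepsin, fell by 0.24 (adjusted p = 0.0127), a call lost without the first control library. Leaving out the first or second control or the second BBR library left 2 of the 10 called. From BBR to BBR+OA 3 rose and none fell (30%, against 38.9% of all genes, median 0.12), with G6pc at 0.90 and Hsd17b13 at 1.26.

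Of 10 tested pericentral genes, the zone of Glul, OA lowered 4 and raised none (40% called, against 42.8% of all genes, median -0.26), and BBR+OA against BBR lowered 5 and raised none (50%, against 38.9%, median -0.18). With the replicate block 7 of the 10 were called in OA against control. Gulo, the last enzyme of vitamin C synthesis, fell with OA from 67.7, 67.8 and 64.6 CPM to 36.0, 41.0 and 40.9 CPM, by 0.73 (SE 0.0607, adjusted p = 4.05e-07 by edgeR), and by 0.68 in BBR+OA against BBR. Cyp2e1, the ethanol-oxidising cytochrome, fell by 0.49 in BBR+OA against BBR (SE 0.106, adjusted p = 0.00206). Lhpp, a phosphatase, fell with OA by 0.34 (SE 0.130, adjusted p = 0.0477 by edgeR), a call lost with DESeq2 and without any of 4 single libraries. With BBR alone 1 pericentral gene, Cyp2e1, was called, higher by 0.28 (adjusted p = 0.0192 by edgeR, 10% of the list, against 27.7% of all genes, median -0.02), a call lost with DESeq2, in the fit on all 12 libraries and without any of 4 single libraries. Of the portal and pericentral lists no gene was called in BBR+OA against OA by the main edgeR fit or DESeq2. There 0 and 1 genes had an unadjusted p under 0.05 by edgeR. In the interaction the main edgeR fit called none of either list, with 2 and 1 genes at an unadjusted p under 0.05. With the replicate block 5 periportal genes and 1 pericentral gene were called in the interaction.

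The genes most like the 2 members with the widest range were found by Pearson's r of log2(CPM + 1) over the 12 libraries, among 10011 genes. The 6 libraries with OA and the 6 without stood apart in these genes, so r is a description of that separation and of the level in BBR. For Cps1, whose group means spanned 4.18 on that scale, the closest were Nab1 (r = 0.996), Ahsg (0.994), Cdo1 (0.993), Gars (0.992) and Cltb (0.991). Of these Cdo1, cysteine dioxygenase, had the nearest size of difference, with 35.9 ± 4.197 CPM in control, 322 ± 8.999 in OA, 26.4 ± 1.21 in BBR and 312 ± 8.96 in BBR+OA. Nab1 went only from 141 ± 2.005 to 202 ± 6.35 CPM with OA, so a like order of libraries was not a like size. For Glul, which spanned 0.98, the closest were Aldh1l1 (r = 0.989), Pdia3 (0.985), Tcea3 (0.983), Sord (0.982) and Rin2 (0.980). Aldh1l1, a folate enzyme, had 150.4 ± 10.1 CPM in control, 82.8 ± 3.31 in OA, 116 ± 6.88 in BBR and 77.4 ± 1.59 in BBR+OA. The other 8 members spanned 0.12 (Asl) to 0.75 (Arg1).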

How the data were processed

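The authors made poly(A)-selected RNA sequencing libraries from the 12 hepatocyte cultures and deposited, for each library, estimated counts and FPKM per gene for 22471 features, of which 2862 had a fractional count in some library. The submitters' processing notes name build mm10; the aligner, the counter and the use of strand are not given in the sources used here. Counts were rounded to whole numbers. edgeR 4.0.16 (R 4.3.3) was used with filterByExpr (minimum count 10), TMM scaling and the quasi-likelihood F test, on the 6 libraries of each pair of groups and on all 12 for the interaction, with Benjamini-Hochberg adjustment and calls at an adjusted p under 0.05. DESeq2 1.42.0, RLE and upper quartile scaling, no filter, a fit on all 12 libraries, a replicate block and leaving out each library were the alternatives. The standard error is the absolute log2 fold change divided by the square root of F. The fits were tested on simulated data. CPM were computed from the rounded counts, and the deposited FPKM served for levels between genes.

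The members and lists were chosen with earlier results of these data known. The members were part of each fit, but their p-values are not printed, and their calls serve only as counts beside those of all genes. Named list genes were, per list and comparison of 2 groups, up to 2 with the largest rise and up to 2 with the largest fall among called genes whose groups did not overlap and whose higher mean reached 5 CPM. Same-numbered libraries deviated together in BBR against control (correlations over 9717 genes of 0.294, 0.105 and 0.143), BBR+OA against OA (0.277, 0.115 and 0.257) and OA against control (0.342, 0.234 and 0.377). In BBR+OA against BBR the same-number values were 0.294, 0.068 and 0.101, and BBR+OA library 2 correlated more with BBR library 3 (0.136). The numbers may thus mark a pairing across all groups, which the labels do not state. Every printed p-value comes from a fit without the replicate block. Some results that met these rules are not reported here.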

Additional observations from a re-analysis of the deposited data

Results flagged for a closer look

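Among the named genes outside the set, 10 had a BBR effect that differed between cultures with and without OA by edgeR's interaction test, given as the log2 effect with OA minus that without. Of the glutamine and glutamate genes, Gpt2 had 1.02 (adjusted p = 5.69e-06), Kyat1 0.77 (0.00933), Glud1 0.70 (1.77e-05), Nit2 0.57 (0.000684), Slc38a1 -0.59 (0.0150) and Slc38a7 -0.31 (0.0184). Of the urea, arginine and ornithine list, Agmat had 0.69 (0.0371) and Aqp9 0.26 (0.0374). Of the regulators, Gcgr had 1.08 (0.000884) and Onecut1 0.80 (0.0311). The calls were lost under 12 of 17 alternatives for Aqp9, 8 for Agmat, 8 for Onecut1 and 3 for Slc38a7, and under none for the other 6. The groups held 3 libraries each, too few for a check of single libraries that stand apart.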

How the results depend on the processing

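No result changed direction while called under any alternative run. With the replicate block, which follows the replicate number, 1333 genes were called in BBR+OA against OA in place of 563, with 1 arginine gene, 4 glutamine genes and 4 regulators, and the block called 7 pericentral genes in OA against control and 5 periportal and 1 pericentral gene in the interaction. No filter called 1 arginine and 1 glutamine gene in BBR+OA against OA and 1 periportal gene in the interaction, and the fit on all 12 libraries called 1 arginine gene in BBR+OA against OA and 0 pericentral genes in BBR against control. DESeq2 called 0 pericentral genes in BBR against control, 5 members and 3 pericentral genes in BBR+OA against BBR and 0 arginine genes in the interaction, where RLE scaling called 2. The cause was not tested.

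Leaving out 1 library at a time, genes called ran from 2598 to 3240 in BBR against control, 216 to 632 in BBR+OA against OA, 4270 to 5273 in OA against control, 4012 to 4378 in BBR+OA against BBR and 1027 to 1679 in the interaction. In BBR+OA against OA the count was 249 without the second OA library and 373, 230 and 216 without BBR+OA libraries 1, 2 and 3, and in the interaction it was 1027 without the second OA and 1028 without the second BBR library. In that order of comparisons, members called ran from 6 to 7, 0 to 0, 4 to 5, 5 to 8 and 3 to 5, arginine genes from 4 to 8, 0 to 1, 5 to 10, 7 to 9 and 0 to 6, and glutamine genes from 15 to 16, 0 to 1, 15 to 17, 16 to 18 and 8 to 13. Regulators ran from 7 to 9, 1 to 2, 9 to 10, 8 to 10 and 3 to 5, periportal genes from 2 to 4, 0 to 0, 4 to 5, 3 to 5 and 0 to 1, and pericentral genes from 0 to 1, 0 to 0, 3 to 5, 4 to 5 and 0 to 1. Without the first BBR library the log2 fold change of Cps1 in BBR+OA against BBR was 4.51. Among the members, the coefficient of variation over 3 libraries reached 22.7% for Cps1 and 22.6% for Otc in BBR, which limits those levels.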
